A study of Homo sapiens with 6 samples.

Results

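A set of 35 lysosome and autophagy genes was examined by RNA-Seq in DU-145-DR/tet-MUC1shRNA cells. The genes were chosen by name for their known roles, from the transcription factors of the lysosome to the receptors that load cargo into autophagosomes. All 35 were among the 28008 genes of the count table, and all 35 were among the 14292 genes that had enough reads to be tested. DU-145 is a human prostate cancer cell line, and DU-145-DR cells were derived from it by selection in docetaxel (DTX). The cells carried a short hairpin RNA that targets MUC1, the gene of a transmembrane mucin, and that is switched on by doxycycline (DOX); they were grown in serum-containing medium. The 6 libraries came from 3 cultures that received DMSO as vehicle (DOX-negative) and 3 that received DOX at 500 ng/ml (DOX-positive). According to the study, the exposure lasted a week. The comparison addressed how silencing of MUC1 altered transcript levels in the resistant cells. No library of a control hairpin with DOX was analysed here, so loss of MUC1 and exposure to DOX cannot be told apart. The hairpin is named in the sample labels of the DOX-positive cultures alone, and its presence in the DOX-negative cultures is taken from the study. The hairpin was delivered with a drug-selected vector to a single resistant line, and whether that line is 1 clone is not given in the sources used here.

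Lysosomes are acidic organelles in which hydrolases degrade proteins, glycans and lipids. The acid is supplied by the vacuolar ATPase (V-ATPase), a rotary proton pump with a membrane sector (V0) and a cytosolic sector (V1). Autophagy delivers cytoplasm to lysosomes: a kinase complex and a lipid kinase complex start a membrane, a ubiquitin-like conjugation system attaches ATG8 proteins to it, and receptors tether cargo to those proteins. TFEB, TFE3 and MITF are related transcription factors that bind an E-box in the promoters of many of these genes, and the kinase mTORC1 holds TFEB and TFE3 in the cytoplasm when nutrients are plentiful. Their activity is set largely by phosphorylation and location, which transcript levels do not report. In prostate cancer cells autophagy is known as a response to starvation, drugs and organelle damage.

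The libraries held between 15092691 and 23243713 counts, and the detection floor was set at 3 counts, equal to 0.131 to 0.202 CPM (counts scaled by library size). MUC1 was at 21.9 ± 2.58 CPM in the DOX-negative cultures and 3.86 ± 0.585 CPM in the DOX-positive cultures (mean ± SD, n = 3 each), which left 17.6% of the DOX-negative mean (log2 fold change -2.52, SE 0.146, adjusted p = 4.47e-11). The 5 epithelial and keratin markers were higher in the DOX-positive cultures in 5 of 5 cases, with a summed level of 758 to 838 CPM without DOX and 1444 to 1517 CPM with it. The 7 macrophage markers, from a cell type rich in lysosomes, summed to between 0.605 and 0.896 CPM without DOX and between 0.313 and 1.09 CPM with it, with CD163, AIF1 and TYROBP at 0 in all 6. The 6 lymphocyte markers summed to at most 0.157 CPM in any library, and the 6 fibroblast markers to between 4.27 and 6.27 CPM, with 0 of the 2 that could be tested past the threshold. The part that the shift in epithelial markers has in the results below was not tested. The values are from whole cultures, so fewer cells of a kind and less RNA per cell cannot be told apart.

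The promoters of the genes were read first, because the TFEB family binds an E-box before many lysosomal genes. The core TCACGTG was searched on both strands in RefSeq windows of GRCh38.p14 that span 250 bases before to 50 bases after each annotated start. A window was given for 27 of the 35 genes, and not for LAMP2, CTSB, HEXA, PSAP, ATP6V1A, ATP6V1B2, ATP6V1H and UVRAG. The core was found in 7 of the 27 (25.9%), against 4.49% of the 27305 genes with a window and 7.23% of the 10483 tested genes with a window. The 7 genes were LAMP1, MCOLN1, CTSA, CTSD, NEU1, GAA and ATP6V0D1. Lysosomal genes account for all 7, and none of the 12 autophagy genes with a window held the core. The stretches below run from 200 bases before to 10 bases after the start, on the strand of the gene, with the core in capitals (8 capitals where the core lies on both strands and the matches overlap). LAMP1 (chr13:113297039-113297248, + strand), which encodes an abundant lysosomal membrane glycoprotein, is shown because it holds the largest number of matches in the set.
LAMP1: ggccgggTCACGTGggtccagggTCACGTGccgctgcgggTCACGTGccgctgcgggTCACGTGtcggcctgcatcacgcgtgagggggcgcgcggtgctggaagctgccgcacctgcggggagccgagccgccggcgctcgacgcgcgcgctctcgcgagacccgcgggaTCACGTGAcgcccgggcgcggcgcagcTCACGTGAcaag
LAMP1 held 6 matches, 4 of them between positions -193 and -137 from the start. MCOLN1 (chr19:7522424-7522633, + strand), which encodes a lysosomal calcium channel, and GAA (chr17:80101381-80101590, + strand), which encodes acid alpha-glucosidase, each held 2.
MCOLN1: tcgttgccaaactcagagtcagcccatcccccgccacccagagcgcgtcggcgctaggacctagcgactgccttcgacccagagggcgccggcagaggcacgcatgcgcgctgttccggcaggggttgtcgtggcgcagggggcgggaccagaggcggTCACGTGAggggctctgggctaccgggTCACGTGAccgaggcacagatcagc
GAA: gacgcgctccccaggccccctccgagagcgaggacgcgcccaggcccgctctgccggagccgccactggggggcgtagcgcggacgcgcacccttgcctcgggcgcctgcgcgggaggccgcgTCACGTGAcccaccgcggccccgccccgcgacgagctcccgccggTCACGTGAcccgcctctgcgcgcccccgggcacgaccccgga
ATP6V0D1 (chr16:67481148-67481357, - strand) encodes the d subunit of the V0 sector and is shown as the gene with a match that rose. MAP1LC3B (chr16:87392136-87392345, + strand) encodes an ATG8 protein and is shown as a gene that fell, with no match in its window.
ATP6V0D1: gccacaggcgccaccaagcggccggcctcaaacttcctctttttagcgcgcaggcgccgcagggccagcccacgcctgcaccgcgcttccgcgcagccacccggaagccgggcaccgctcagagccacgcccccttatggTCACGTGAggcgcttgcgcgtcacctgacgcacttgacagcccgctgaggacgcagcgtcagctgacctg
MAP1LC3B: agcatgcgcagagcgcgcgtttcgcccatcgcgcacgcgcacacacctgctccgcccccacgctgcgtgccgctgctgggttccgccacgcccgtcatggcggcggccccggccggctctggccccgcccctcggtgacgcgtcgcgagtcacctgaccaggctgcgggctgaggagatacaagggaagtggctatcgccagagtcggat
A match is a description of the letters and not evidence of binding, by the TFEB family or by any other factor.

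**Figure D1:**
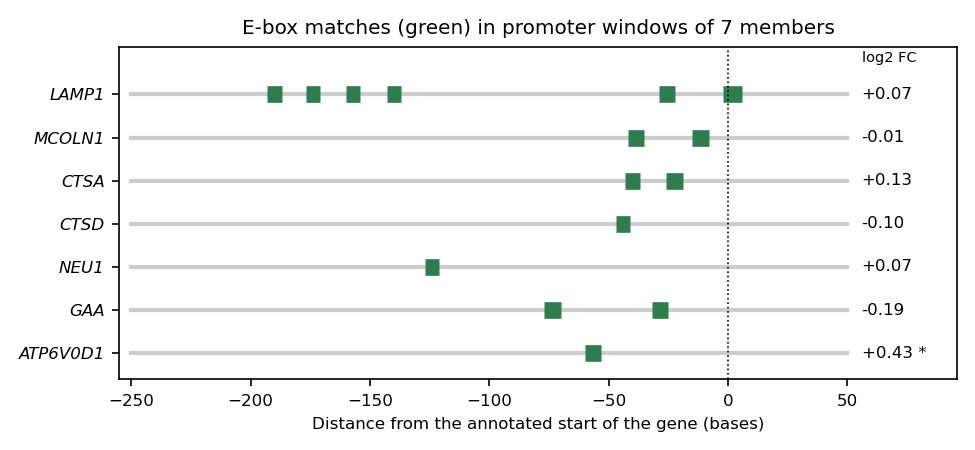
Positions of TCACGTG matches (green boxes) in the promoter windows of the 7 genes that hold one, by distance in bases from the annotated start, with the log2 fold change of each gene at the right and an asterisk where it passed the threshold. LAMP1 holds 6 matches and changed by 0.07, whereas ATP6V0D1 holds 1 and rose by 0.43.

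Among the 35 genes, 14 (40.0%) passed the threshold of an adjusted p under 0.05, with 12 higher and 2 lower in the DOX-positive cultures. Over all genes tested, 26.7% passed the same threshold, with 13.0% higher and 13.7% lower. The counts by role given below cover 2 to 7 genes each and have to be read beside these shares. The genes that rose were CTSB, CTSL, HEXA, PSAP, ATP6V0D1, ATP6V1A, ATP6V1B2, WIPI1, ATG12, ATG16L1, OPTN and NBR1, and those that fell were GLA and MAP1LC3B. Changes were small throughout, between -0.32 and 0.49 on the log2 scale, with a median of 0.126 against -0.0034 over all genes tested. Only WIPI1 and ATP6V0D1, among the 14, changed by 0.4 or more. The CPM values of the groups did not overlap for 16 genes that were higher and 2 that were lower, where 39.8% of all genes tested did not overlap (19.5% higher and 20.2% lower). Of these 18 genes, 5 did not pass the threshold: CTSA, CTSC, GLB1, ATG5 and GABARAPL1. The 35 genes together took 0.425%, 0.430% and 0.419% of the counts in DOX-negative replicates 1 to 3 and 0.456%, 0.441% and 0.441% in DOX-positive replicates 1 to 3. The DOX-positive share was thus higher in 3 of 3 libraries, by a margin that was small beside the shares themselves. Exons of 7 of the 14 genes overlap a gene on the opposite strand in GENCODE 29: HEXA (HEXA-AS1), ATP6V1A, WIPI1 (ARSG), ATG12 (AP3S1), MAP1LC3B (FBXO31), OPTN (CCDC3) and NBR1. The counting strand is not given in the sources used here, so reads from the overlapping exons cannot be told apart. HEXA also overlaps AC009690.1 on its own strand, which a strand setting would not resolve. The same holds for MCOLN1, CTSD and GLB1, which did not pass.

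**Figure D2:**
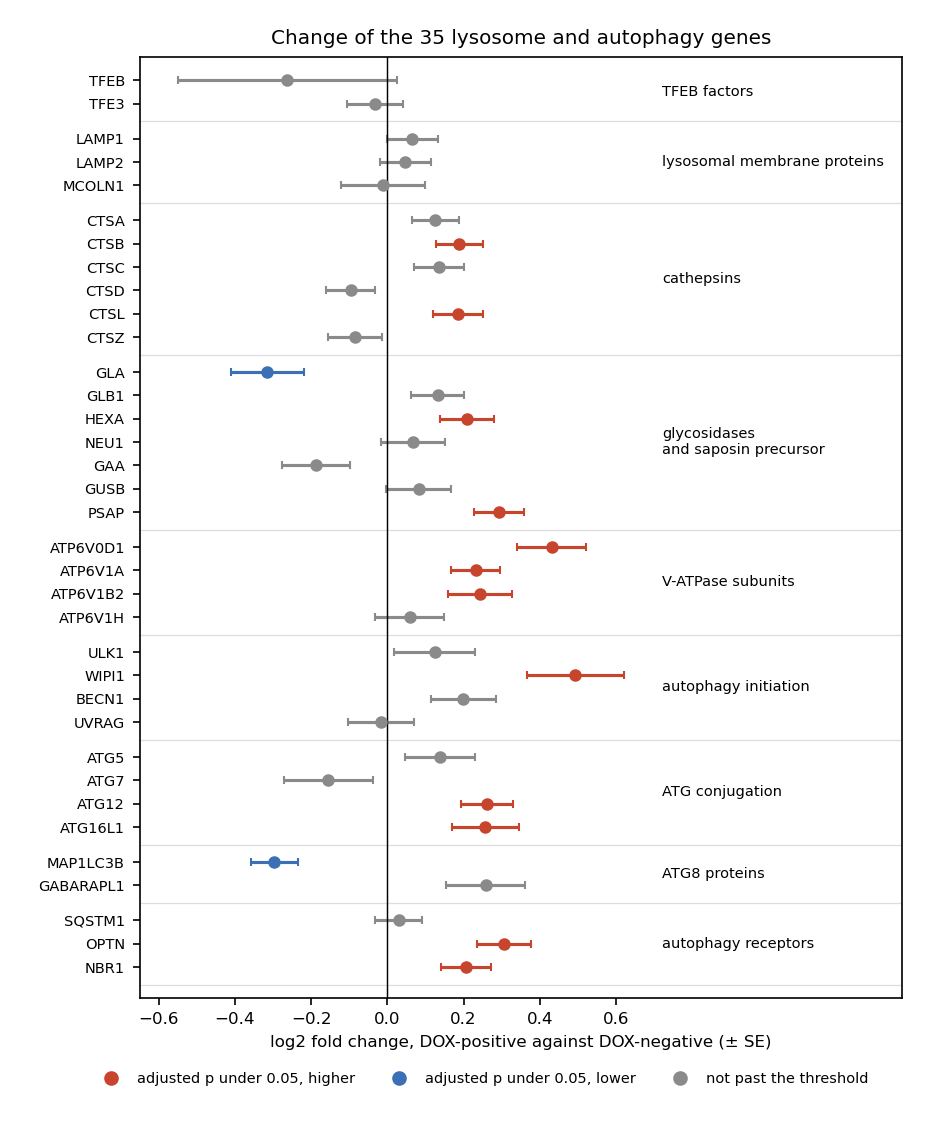
Log2 fold change of each of the 35 genes, DOX-positive against DOX-negative (points), with its SE (bars), in groups by role; red and blue mark genes past the threshold that were higher and lower, from edgeR with TMM factors. The 12 red points lie between 0.19 and 0.49, the 2 blue points are GLA and MAP1LC3B, and on the deposited TPM 23 of the 35 signs were opposite.

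These directions are relative to the bulk of the genes, and the scaling mattered. The TPM table, whose values are scaled by transcript length and library, includes the short noncoding RNAs RPPH1, RN7SK, RN7SL1, RN7SL2 and RN7SL3, and these 5 held between 34.4% and 64.4% of a library. On log2(TPM + 1) the median over all genes was -0.321, 23 of the 35 genes had the opposite sign, 0 passed the threshold, and over all genes 30 were higher and 413 lower against 1861 and 1955 from the counts. TPM rescaled without these 5 RNAs was an alternative added after the data were seen. On it 8 of the 35 genes passed (6 higher and 2 lower), where 3097 of 14130 passed over all genes. None of the 14 changed sign. The 6 genes that did not pass there, CTSB, CTSL, HEXA, ATP6V1B2, ATG16L1 and NBR1, also did not pass when counts were scaled by library totals in place of TMM factors. With those totals 8 of the 35 genes passed, where 3836 of 14292 passed over all genes. In both settings the share of the set was thus near or below that of all genes. The number past the threshold also depended on single libraries: it was 9 without DOX-negative replicate 1, 8 without number 3 of that group, 9 without DOX-positive replicate 1 and 8 without number 3 of that group. In the same order, 2784 of 14505, 3142 of 14501, 3078 of 14509 and 3107 of 14504 genes passed over all genes. PSAP, ATP6V0D1, WIPI1, ATG12, OPTN and MAP1LC3B (6 genes) passed in all 6 fits that left out 1 library, and in all 13 alternatives based on counts or rescaled TPM.

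**Figure D3:**
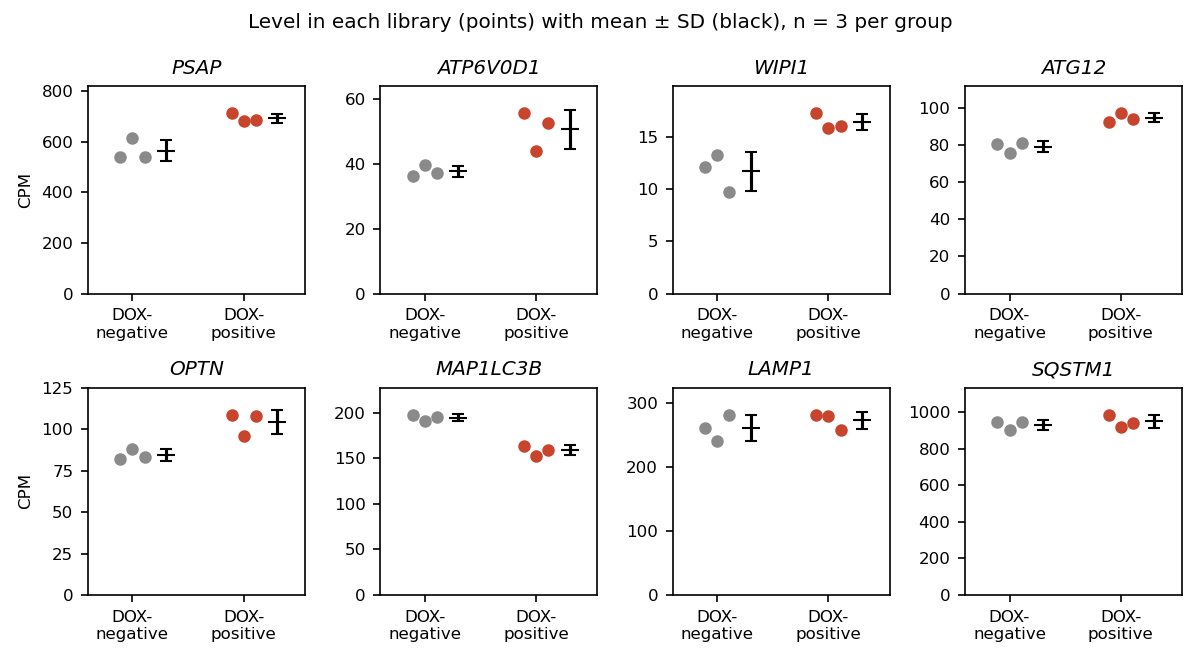
CPM in each library (grey, DOX-negative; red, DOX-positive) with the mean and SD of the 3 cultures in black, for 6 genes past the threshold whichever library was left out, and for LAMP1 and SQSTM1, which did not pass. The 2 groups do not overlap in the 6 former panels and overlap for LAMP1 and SQSTM1; MAP1LC3B is the 1 of the 6 that is lower, and on the deposited TPM the signs of PSAP, ATG12 and OPTN were opposite.

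TFEB and TFE3, the transcription factors of the set, did not pass the threshold. From here on, values with ± are the mean and SD of 3 cultures, DOX-negative before DOX-positive, and values in parentheses are log2 fold changes of DOX-positive over DOX-negative cultures, with their SE and edgeR adjusted p where given. TFEB was at 2.09, 2.97 and 1.59 CPM in DOX-negative replicates 1 to 3 and at 2.09, 1.72 and 1.68 CPM in their DOX-positive counterparts (log2 fold change -0.26, SE 0.288, adjusted p = 0.548). These levels rest on 25 to 58 counts a library, and the groups overlap. TFE3 was at 75.0, 70.1 and 75.2 CPM in the former and 76.0, 71.0 and 68.2 CPM in the latter (-0.032, SE 0.0732, adjusted p = 0.798). Per unit of transcript length TFE3 also exceeded TFEB, with 21.3 to 38.2 TPM against 0.604 to 2.09 TPM. TFEB was the lowest of the 35 genes on this scale in 6 of 6 libraries. The SE of TFEB was larger than its change, so a difference was not detectable at this depth.

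The lysosomal membrane proteins LAMP1, LAMP2 and MCOLN1 likewise gave 0 of 3 past the threshold. LAMP1 was at 261, 240 and 282 CPM in DOX-negative replicates 1 to 3 and 282, 280 and 258 CPM in their DOX-positive counterparts, and the groups overlap (0.065, SE 0.0673, adjusted p = 0.520). LAMP2, which also takes part in chaperone-mediated autophagy, was at 153 ± 12.1 and 158 ± 2.69 CPM (0.047, adjusted p = 0.653). MCOLN1 was at 16.4 ± 0.133 and 16.3 ± 1.48 CPM (-0.011, adjusted p = 0.954). The 6 E-box matches of LAMP1 and the 2 of MCOLN1, printed above, thus stood before genes whose levels differed by less than the spread between cultures.

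Of the 6 cathepsins, CTSB and CTSL rose and the other 4 did not pass. CTSB, a cysteine protease, was at 175, 161 and 162 CPM in DOX-negative replicates 1 to 3 and 189, 191 and 188 CPM in their DOX-positive counterparts (0.19, SE 0.0621, adjusted p = 0.0280). CTSL, a cysteine endopeptidase with 5 named pseudogenes that could share its reads, was at 146, 158 and 162 CPM and at 172, 181 and 176 CPM (0.19, SE 0.0644, adjusted p = 0.0365). In both genes the DOX-positive libraries all lay above the DOX-negative range. The CTSB call was lost when DOX-negative replicate 2 or 3 (0.17 each) or DOX-positive replicate 1 or 3 (0.19 each) was left out. It was also lost with total counts (0.15, adjusted p = 0.0672) and on rescaled TPM (0.16, adjusted p = 0.0728). The CTSL call was lost in the fit without DOX-negative replicate 1 (0.14) and in those without DOX-positive replicates 1 (0.21), 2 (0.16) and 3 (0.19), with total counts (0.15, adjusted p = 0.0822) and on rescaled TPM (0.16, adjusted p = 0.0742). CTSA, a carboxypeptidase that protects other lysosomal enzymes, was at 174 ± 5.18 and 190 ± 4.48 CPM (0.13, adjusted p = 0.137). CTSC, a dipeptidyl peptidase, was at 93.0 ± 2.13 and 102 ± 1.18 CPM (0.14, adjusted p = 0.134). CTSD, the main lysosomal aspartic protease, was at 173 ± 2.78 and 161 ± 8.94 CPM (-0.096, adjusted p = 0.285), and CTSZ, a carboxypeptidase, at 118 ± 10.3 and 111 ± 2.94 CPM (-0.085, adjusted p = 0.417). The median of the 6 was 0.131, and on the deposited TPM the signs of CTSA, CTSB, CTSC and CTSL were opposite.

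Among the glycosidases and the saposin precursor, PSAP and HEXA rose, GLA fell and 4 of the 7 did not pass. PSAP encodes prosaposin, which is cut into the activators that present sphingolipids to lysosomal hydrolases. PSAP was at 541, 615 and 541 CPM in DOX-negative replicates 1 to 3 and at 714, 681 and 685 CPM in their DOX-positive counterparts (0.29, SE 0.0647, adjusted p = 0.00170). It was above the DOX-negative range in 3 of 3 DOX-positive libraries, and in 6 of 6 libraries it was second of the 35 genes in TPM. HEXA encodes the alpha subunit of the hexosaminidase that trims GM2 ganglioside, and was at 70.2, 70.8 and 68.9 CPM and at 77.0, 80.8 and 85.0 CPM (0.21, SE 0.0710, adjusted p = 0.0327). The groups do not overlap, but leaving out DOX-negative replicate 1 (0.21) or 3 (0.20) or DOX-positive replicate 3 (0.17) ended the call. HEXA also did not pass with total counts (0.17, adjusted p = 0.0756) or on rescaled TPM (0.18, adjusted p = 0.0758). On the deposited TPM the signs of PSAP and HEXA were opposite (-0.098 and -0.18, with the median of all genes at -0.321).

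GLA, which encodes alpha-galactosidase A, the enzyme that removes galactose from globo-series lipids, was at 38.9, 37.3 and 43.1 CPM in DOX-negative replicates 1 to 3 and 35.4, 28.1 and 32.3 CPM in their DOX-positive counterparts (-0.32, SE 0.0954, adjusted p = 0.0173). All 3 DOX-positive libraries were lower, and the call was lost without DOX-negative replicate 3 (-0.25) or DOX-positive replicate 2 (-0.23). GAA, which digests glycogen in the lysosome, was at 45.7 ± 2.88 and 40.0 ± 4.17 CPM (-0.19, adjusted p = 0.130). GLB1, beta-galactosidase, was at 86.7 ± 3.66 and 95.0 ± 2.57 CPM with groups that do not overlap (0.13, adjusted p = 0.165). NEU1, a sialidase, was at 71.7 ± 8.03 and 75.0 ± 5.18 CPM, and GUSB, beta-glucuronidase, with 10 named pseudogenes that could share its reads, at 40.3 ± 2.48 and 42.7 ± 2.73 CPM (adjusted p = 0.604 and 0.521).

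Of the 4 V-ATPase subunits, 3 rose, and on the deposited TPM the signs of ATP6V1A and ATP6V1B2 were opposite (-0.16 and -0.15). ATP6V0D1, which couples the rotor of the pump to its membrane sector, was at 36.3, 39.7 and 37.2 CPM in DOX-negative replicates 1 to 3 and at 55.8, 44.0 and 52.6 CPM in their DOX-positive counterparts (0.43, SE 0.0908, adjusted p = 0.00114). DOX-positive replicate 2 stood below the other DOX-positive libraries, but above every DOX-negative library. ATP6V1A, the catalytic subunit, was at 129, 122 and 124 CPM and at 147, 142 and 151 CPM (0.23, SE 0.0636, adjusted p = 0.00941). Its groups do not overlap, and without DOX-positive replicate 3 the adjusted p was 0.0528 (0.21). ATP6V1B2, the nucleotide-binding B subunit, was at 53.6, 62.6 and 59.6 CPM and at 74.3, 62.2 and 71.5 CPM (0.24, SE 0.0834, adjusted p = 0.0350). Here DOX-positive replicate 2 fell within the DOX-negative range. The ATP6V1B2 call was lost when DOX-negative replicate 1 (0.18) or 3 (0.26) or DOX-positive replicate 1 (0.19) or 3 (0.22) was left out. With total counts (0.21, adjusted p = 0.0736) and on rescaled TPM (0.21, adjusted p = 0.0954) it did not pass, which left 2 of the 4 subunits past the threshold. ATP6V1H, a regulatory subunit of the V1 sector, was at 30.4 ± 2.41 and 31.7 ± 0.897 CPM (0.059, adjusted p = 0.681). Summed, the 4 subunits were at 249, 252 and 254 CPM in DOX-negative replicates 1 to 3 and 308, 280 and 308 CPM in their DOX-positive counterparts.

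In the group that starts autophagy, WIPI1 rose and ULK1, BECN1 and UVRAG did not pass. WIPI1 binds the lipid PI3P on the growing membrane. It was at 12.1, 13.3 and 9.70 CPM in DOX-negative replicates 1 to 3 and at 17.3, 15.9 and 16.1 CPM in their DOX-positive counterparts, the largest change in the set (0.49, SE 0.127, adjusted p = 0.00583). The groups do not overlap, and the sign was positive on the deposited TPM too (0.087). BECN1, a scaffold of the lipid kinase complex that makes PI3P, was at 58.2 ± 6.48 and 66.9 ± 4.77 CPM (0.20, adjusted p = 0.0895), and passed, of the alternatives run, only in the fit without DOX-negative replicate 2 (0.29, adjusted p = 0.0164). ULK1, the kinase that triggers the process, was at 27.5 ± 4.59 and 30.0 ± 1.24 CPM (0.12, adjusted p = 0.430). UVRAG, a partner of BECN1, was at 34.9 ± 2.48 and 34.4 ± 0.427 CPM (-0.018, adjusted p = 0.908).

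The ATG12-ATG5-ATG16L1 complex, which directs the attachment of ATG8 proteins to lipid, had 2 of its 3 genes among those that rose. ATG12, a ubiquitin-like protein with 1 named pseudogene that could share its reads, was at 80.5, 75.7 and 81.1 CPM in DOX-negative replicates 1 to 3 and at 92.8, 97.4 and 94.4 CPM in their DOX-positive counterparts (0.26, SE 0.0687, adjusted p = 0.00675). ATG16L1, which places the complex on the membrane, was at 27.9, 25.8 and 28.1 CPM and at 32.6, 32.5 and 32.4 CPM (0.26, SE 0.0878, adjusted p = 0.0342). Neither gene's groups overlap. On the deposited TPM both signs were opposite (-0.13 each). The ATG16L1 call was lost on removal of any 1 of DOX-negative replicates 1 (0.27), 2 (0.22) and 3 (0.28) or of DOX-positive replicates 1 (0.25) and 3 (0.26), with total counts (0.22, adjusted p = 0.0651) and on rescaled TPM (0.22, adjusted p = 0.0594). ATG5, to which ATG12 is joined, was at 24.5, 24.2 and 24.6 CPM and at 26.3, 28.1 and 26.3 CPM (0.14, adjusted p = 0.289), without overlap. DU-145 cells are known to lack full-length ATG5 protein because of a splice defect, which counts summed over a gene do not show. Whether autophagy was active in these cells cannot be read from the transcript levels given here. ATG7, the E1-like enzyme of the system, was at 20.8 ± 2.33 and 18.7 ± 2.44 CPM (-0.15, adjusted p = 0.356).

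Of the ATG8 proteins of the set, MAP1LC3B fell and GABARAPL1 did not pass. MAP1LC3B encodes LC3B, the ATG8 protein most used to follow autophagosomes, and was at 198, 191 and 195 CPM in DOX-negative replicates 1 to 3 and at 164, 153 and 159 CPM in their DOX-positive counterparts (-0.30, SE 0.0618, adjusted p = 0.00105). Every DOX-positive library was below every DOX-negative library. MAP1LC3B2, a nearly identical copy that could share reads with it, averaged 3.21 CPM without DOX and 3.29 CPM with it, and MAP1LC3B also has 1 named pseudogene (MAP1LC3BP1). How reads shared between such copies were assigned is not given in the sources used here, so the level of MAP1LC3B is uncertain in that respect. GABARAPL1, of the other ATG8 branch, was at 20.3, 23.3 and 18.6 CPM and at 25.7, 24.6 and 23.9 CPM (0.26, SE 0.103, adjusted p = 0.0691). Its groups do not overlap, and it passed in 1 of the alternatives run, without DOX-negative replicate 2 (0.35, adjusted p = 0.0245). On the deposited TPM the sign of GABARAPL1 was opposite (-0.13), and MAP1LC3B was lower there too (-0.68).

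Of the autophagy receptors, OPTN and NBR1 rose, and SQSTM1 did not pass. OPTN, a receptor for ubiquitin-coated mitochondria and bacteria, was at 82.0, 88.5 and 83.1 CPM in DOX-negative replicates 1 to 3 and at 109, 96.3 and 108 CPM in their DOX-positive counterparts (0.31, SE 0.0719, adjusted p = 0.00293). NBR1, a receptor for ubiquitinated aggregates and peroxisomes, was at 133, 137 and 125 CPM and at 151, 159 and 144 CPM (0.21, SE 0.0662, adjusted p = 0.0244). In both genes the groups do not overlap, and on the deposited TPM both signs were opposite (-0.088 and -0.18). NBR1 did not pass when DOX-negative replicate 1 (0.21) or 3 (0.17) or DOX-positive replicate 1 (0.21) or 2 (0.17) was left out, with total counts (0.17, adjusted p = 0.0649) or on rescaled TPM (0.18, adjusted p = 0.101). SQSTM1, which encodes p62, was at 948, 900 and 944 CPM and at 987, 921 and 941 CPM (0.029, SE 0.0613, adjusted p = 0.775). The groups overlap, and SQSTM1 had the highest TPM of the 35 genes in 6 of 6 libraries, between 286 and 508 TPM.

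Read against the promoters, 1 of the 7 genes with a TCACGTG match rose (ATP6V0D1) and 6 did not pass, with changes between -0.19 and 0.43 and a median of 0.07. Of the 20 genes with a window and no match, 6 rose and 2 fell, with changes between -0.32 and 0.49 and a median of 0.13. The other 5 genes that rose had no window. Over all tested genes with a window, a match was held by 7.75% of those that rose, 7.11% of those that fell and 7.16% of those that did not pass. Whether the match bears on the changes was not tested.

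The other genes of the pathway were taken from 7 lists by role, with 167 genes, of which 163 were tested and TFEC, ATP6V1B1, MAP1LC3C and STBD1 were not. Of the 163, 34 rose and 15 fell (49 genes, 30.1%, where 26.7% of all genes passed), with a median change of 0.058; on log2(TPM + 1), 2 passed, 1 in each direction. The count was between 37 and 48 when 1 library was left out.

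**Figure D4:**
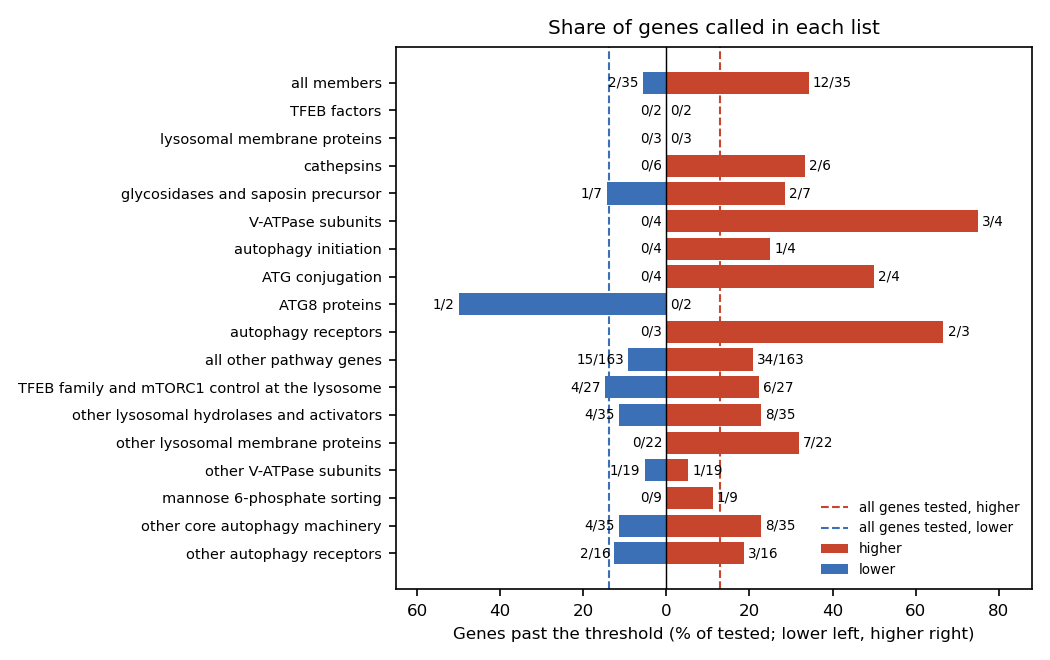
Share of tested genes past the threshold in each list, higher to the right in red and lower to the left in blue, with the number past the threshold over the number tested beside each bar; dashed lines give the shares over all genes tested (13.0% higher and 13.7% lower). The 35 genes (all members) reach 12 of 35 higher, and the 163 other pathway genes 34 of 163; on the deposited TPM 0 of the 35 passed.

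Among TFEB family factors and the genes that control mTORC1 at the lysosome, 6 of 27 rose and 4 fell (37.0%, where 26.7% of all genes passed). SESN2, an amino acid sensor that restrains mTORC1, rose from 29.7 ± 3.68 to 73.5 ± 4.05 CPM (1.31, SE 0.0898, adjusted p = 5.78e-10). SESN1, of the same family, rose from 7.42 ± 0.629 to 14.3 ± 2.01 CPM (0.95, adjusted p = 2.38e-05). SESN3, also of that family and named after its values were seen, went the other way. SESN3 was at 144, 126 and 122 CPM in DOX-negative replicates 1 to 3. In their DOX-positive counterparts it was at 89.6, 97.2 and 89.5 CPM (-0.50, adjusted p = 2.14e-05). LAMTOR3, a subunit of the Ragulator complex that anchors mTORC1 to the lysosome, fell from 29.4 ± 3.68 to 17.8 ± 1.60 CPM (-0.73, adjusted p = 3.31e-05). SESN1, SESN2 and the lysosomal membrane gene DRAM1 are also known p53 targets, and DU-145 carries mutant p53. MITF, named after its values were seen as the remaining tested relative of TFEB, was at 149 ± 3.18 CPM without DOX and at 193 ± 1.34 CPM with it (0.38, SE 0.0609, adjusted p = 7.39e-05). MITF was at 22.7 to 43.9 TPM, and its sign on the deposited TPM was opposite (-0.015). TFEC was listed at 0 TPM in 5 of 6 libraries.

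**Figure D5:**
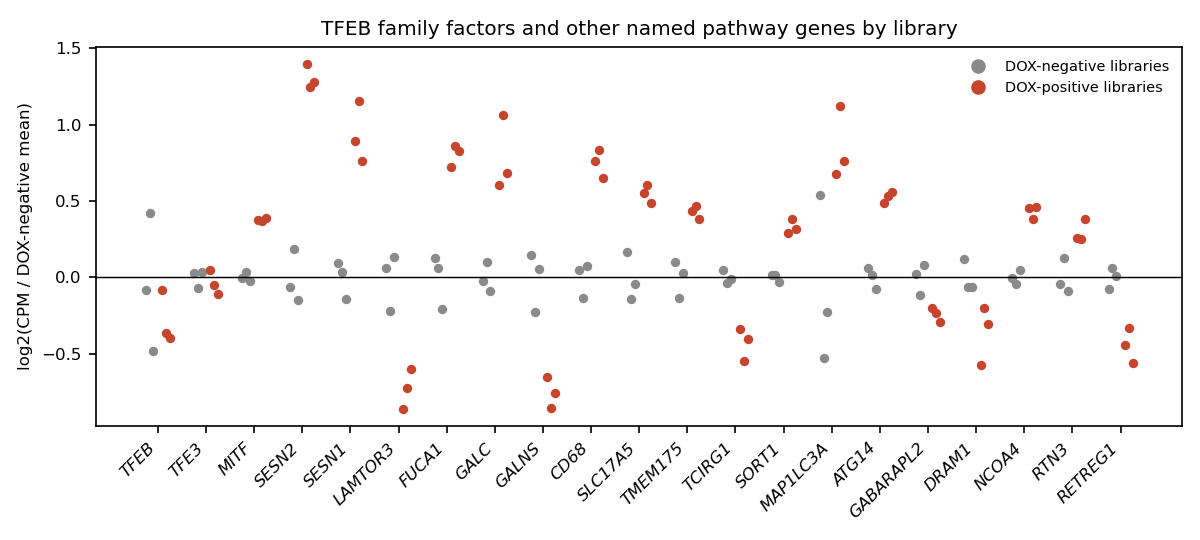
Level of TFEB, TFE3 and the named pathway genes other than SESN3 and ATP6V0D2 in each library, as log2 of CPM over the DOX-negative mean (DOX-negative in grey, DOX-positive in red). TFEB and TFE3 overlap between groups, MITF and SESN2 lie above the DOX-negative libraries in 3 of 3 DOX-positive libraries, and LAMTOR3 and GALNS lie below; on the deposited TPM the signs of MITF, SORT1 and RTN3 were opposite.

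Of the other hydrolases and activators, 8 of 35 rose and 4 fell (34.3%, where 26.7% of all genes passed). GALC, which degrades galactosylceramide, rose from 95.8 ± 6.56 to 166 ± 29.1 CPM (0.80, adjusted p = 1.05e-06), and FUCA1, a fucosidase, from 10.4 ± 1.22 to 18.1 ± 0.848 CPM (0.80, adjusted p = 3.77e-05). GALNS, a sulfatase that degrades keratan sulfate, fell from 20.2 ± 2.64 to 12.0 ± 0.813 CPM (-0.75, adjusted p = 7.75e-05). Of the other membrane proteins 7 of 22 rose and 0 fell (31.8%, where 26.7% of all genes passed). CD68, a heavily glycosylated relative of LAMP1, rose from 101 ± 7.94 to 169 ± 10.5 CPM (0.75, adjusted p = 8.39e-08), while the macrophage markers above stayed near 0. SLC17A5, a sialic acid exporter, rose by 0.55 (adjusted p = 0.000591) and TMEM175, a lysosomal ion channel, by 0.43 (adjusted p = 0.0143). The TMEM175 call was lost without DOX-negative replicate 2 (0.37).

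Of the other V-ATPase subunits, 1 of 19 rose and 1 fell (10.5%, where 26.7% of all genes passed). Among the subunits of the set 3 of 4 rose, and that difference was not tested. TCIRG1, a V0 subunit, fell from 16.9 ± 0.506 to 12.6 ± 0.932 CPM (-0.42, adjusted p = 0.00797). The gene that rose, named after its values were seen, was ATP6V0D2, the tissue-restricted alternative to ATP6V0D1. It had 3, 5 and 3 counts in DOX-negative and 37, 48 and 34 counts in DOX-positive replicates 1 to 3 (3.43, SE 0.441, adjusted p = 4.88e-06). The DOX-negative counts lie at the floor, so the size of this fitted change is poorly set. Of the 9 genes listed for mannose 6-phosphate sorting, which delivers hydrolases to the lysosome, 1 rose and 0 fell (11.1%, where 26.7% of all genes passed). The gene that rose was SORT1, from 187 ± 3.68 to 235 ± 8.04 CPM (0.33, adjusted p = 0.000281). SORT1 is a sorting receptor that does not depend on mannose 6-phosphate. The other 8 genes, among them the mannose 6-phosphate receptors, did not pass.

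In the remaining autophagy machinery 8 of 35 rose and 4 fell (34.3%, where 26.7% of all genes passed). ATG14, which brings BECN1 to the membrane that starts an autophagosome, rose from 54.8 ± 2.65 to 78.8 ± 2.06 CPM (0.52, adjusted p = 1.42e-05). MAP1LC3A, an ATG8 protein of the LC3 branch, was at 1.63 ± 0.653 and 2.97 ± 0.505 CPM (0.88, adjusted p = 0.0285), a call that ended with the removal of DOX-negative replicate 2 (0.67) or 3 (0.78) or DOX-positive replicate 2 (0.73) or 3 (0.92). DRAM1 was at 46.0 ± 3.45 and 36.1 ± 4.70 CPM (-0.35, adjusted p = 0.00884), a call lost without DOX-negative replicate 1 (-0.29) or DOX-positive replicate 1 (-0.25). GABARAPL2, named after its values were seen because MAP1LC3B fell, was at 64.6 ± 4.48 and 54.7 ± 1.81 CPM (-0.24, adjusted p = 0.0253), a call lost without DOX-negative replicate 1 (-0.23) or 3 (-0.19) or DOX-positive replicate 3 (-0.21). Of the other receptors 3 of 16 rose and 2 fell (31.2%, where 26.7% of all genes passed). NCOA4, the receptor that carries ferritin to the lysosome, rose from 303 ± 9.02 to 410 ± 12.0 CPM (0.44, adjusted p = 1.07e-05). RTN3 and RETREG1, receptors for the endoplasmic reticulum, changed by 0.29 (adjusted p = 0.00255) and -0.44 (adjusted p = 0.0116), and the RETREG1 call was lost without DOX-positive replicate 3 (-0.38).

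The heptamer ATCAGTA was counted in the longest protein-coding transcript of each gene, because it had been singled out in an earlier analysis of the same libraries; its counts are therefore a description, and its part in the results was not tested. It was present in 1 of the 2 genes of the set that fell (MAP1LC3B), in 2 of the 12 that rose (CTSB and ATP6V1A) and in 3 of the 21 that did not pass. Among the other pathway genes it was present in 8 of the 15 that fell (53.3%), including LAMTOR3 and GALNS, in 3 of the 34 that rose (8.82%) and in 13 of the 114 that did not pass (11.4%). Over all genes tested it was present in 33.8% of those that fell, 14.7% of those that rose and 15.5% of those that did not pass.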

How the data were processed

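The authors made poly(A) libraries (TruSeq Stranded mRNA) from total RNA of cultures in triplicate. Groups and replicate numbers were taken from the sample titles. The columns of both tables carry abbreviations that no label explains, so only the replicate number and DOX state in their names tie them to samples. The members and lists were chosen with earlier results of these data known. The deposited read counts are whole numbers for 28008 genes, and the deposited TPM cover 25546 genes. The submitters' processing notes name STAR, DESeq2 and GRCh38. The annotation and counting strand are not given in the sources used here. Molecular identifiers are not mentioned, so the counts may include duplicate reads, which the floor of 3 counts does not allow for.

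The main test was edgeR 4.0.16 (R 4.3.3) on the counts, using glmQLFit and glmQLFTest with group as the only term, two-sided. It covered the 14292 genes that filterByExpr retained, with TMM factors (0.986 to 1.03) and Benjamini-Hochberg adjustment over all of them. An adjusted p under 0.05 was the threshold. All fold changes are log2, DOX-positive over DOX-negative. SE was the size of the log2 fold change over the square root of F, and CPM used TMM-scaled library sizes. All 35 members were named. Of the other pathway genes, the rule named up to 3 per list with the largest change, if they passed the threshold, had an average logCPM of 1 or more and showed no overlap between groups. MITF, SESN3, ATP6V0D2 and GABARAPL2 were named after their values were seen. For SESN3 the main fit alone is given. The p-values measure the spread between cultures. Replicates varied beyond sampling noise (chi-square per degree of freedom from 3.65 to 19.0), and each library counted as 1 replicate.

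Alternatives were a fit of all genes, a filter of 10 or more counts in each library, RLE factors, total counts, DESeq2 1.42.0, limma 3.58.1 on log2(TPM + 1) and log2(TPM + 0.1), a replicate block and each library left out. TPM rescaled without 5 short RNAs was added after the data were seen. Changes of low genes are understated on the log2(TPM + pseudocount) scale. Promoters are RefSeq windows of GRCh38.p14, transcripts and overlaps are from GENCODE 29, and a gene with several windows was taken to hold a motif if any window did. A list of lineage markers is not reported here.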

Additional observations from a re-analysis of the deposited data

How the results depend on the processing

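MUC1 stayed past the threshold in every alternative, between -2.85 and -2.36. The count of the 35 genes past the threshold was 14 from the counts and again 14 with no filter, with at least 10 counts in every library, with RLE factors and under DESeq2; it was 8 with total counts, 8 on rescaled log2(TPM + 1), 8 under the replicate block, 0 on log2(TPM + 1) and 0 on log2(TPM + 0.1), and between 8 and 14 when 1 library was left out. Where 8 of the 35 passed, the counts over all genes were 3836 of 14292 (total counts), 3097 of 14130 (rescaled TPM) and 3158 of 14292 (replicate block). The share of the set was near or below that of all genes in these settings. For the other pathway genes the count was 49 and fell to 2 on log2(TPM + 1) and 3 on log2(TPM + 0.1). Over all genes 3816 fell to 443 and 408 on these scales in turn. On these TPM scales the median of all genes was -0.321 and -0.386. Genes with the opposite sign there were, on log2(TPM + 1) and log2(TPM + 0.1) in turn, LAMP1 (-0.32, -0.33), LAMP2 (-0.33, -0.34), CTSA (-0.26, -0.27), CTSB (-0.20, -0.20), CTSC (-0.24, -0.26), CTSL (-0.21, -0.21), GLB1 (-0.26, -0.26), HEXA (-0.18, -0.18), NEU1 (-0.27, -0.32), GUSB (-0.30, -0.31), PSAP (-0.098, -0.098), ATP6V1A (-0.16, -0.16), ATP6V1B2 (-0.15, -0.15), ATP6V1H (-0.31, -0.33), ULK1 (-0.23, -0.25), BECN1 (-0.19, -0.19), ATG5 (-0.23, -0.25), ATG12 (-0.13, -0.13), ATG16L1 (-0.13, -0.14), GABARAPL1 (-0.13, -0.13), SQSTM1 (-0.36, -0.36), OPTN (-0.088, -0.089), NBR1 (-0.18, -0.19), MITF (-0.015, -0.014), SORT1 (-0.06, -0.061) and RTN3 (-0.097, -0.098). Why the TPM differ was not tested beyond the rescaling. SQSTM1 turned to -0.0055 with total counts. Leaving out 1 library turned the sign of 7 genes that did not pass, with ranges of -0.46 to 0.0081 for TFEB, -0.076 to 0.0029 for TFE3, -0.0076 to 0.10 for LAMP2, -0.069 to 0.061 for MCOLN1, -0.022 to 0.12 for NEU1, -0.00081 to 0.24 for ULK1 and -0.076 to 0.013 for UVRAG. Same-numbered libraries deviated with correlations of -0.0457, -0.123 and -0.0318. Differently numbered libraries were not compared, so these values do not settle whether the numbers pair the cultures. Under the replicate block CTSB, CTSL, HEXA, ATP6V1B2, ATG16L1 and NBR1 did not pass (adjusted p from 0.0552 to 0.0790). There 8 of the 35 genes, 40 of the other pathway genes and 3158 genes in all passed. With 3 cultures a group, genes that did not pass are not shown to be equal. TFEB and ATP6V0D2 rest on few counts.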
